A study of Homo sapiens with 54 samples.

Results

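The AP-1 and immediate early genes described here are *FOS*, *FOSB*, *FOSL1*, *JUN*, *JUNB*, *JUND*, *EGR1*, *IER2*, *IER3* and *ATF3*, 10 of the 55906 gene names in each table, and they were taken by name. RNA-sequencing covered 54 libraries of 4 human cancer cell lines in 18 groups of 3 replicates. A549 and NCI-H23 are lung cancer lines, and all of their cells stably expressed Zim3-dCas9, a nuclease-dead Cas9 with a repressor domain that silences the promoter a guide points to (CRISPRi). Their groups carried control guides (Control KD), guides to the splicing factor genes *TRA2A* (*TRA2A* KD) or *TRA2B* (*TRA2B* KD), or guides to both (*TRA2A/B* DKD). LN229 and LN319 are glioma lines whose cells were given nuclease-active Cas9 with the guides. All of them also overexpressed a cDNA. With luciferase (Luc) they carried control, *TRA2A* or *TRA2B* knockout guides (Luc Control KO, Luc *TRA2A* KO, Luc *TRA2B* KO), and with *TRA2B* they carried control or *TRA2A* guides (TRA2B-OE Control KO, TRA2B-OE *TRA2A* KO). The sources used here do not say that any of these were single clones, and each line was collected at 1 time after transduction. The study set *TRA2A*-dependent lines (NCI-H23 and LN319) beside independent ones (A549 and LN229). The question for each comparison here is how the transcript level of each gene changed when *TRA2A*, *TRA2B* or both were depleted.

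AP-1 is a dimer of basic leucine zipper proteins, usually of a FOS protein with a JUN protein, that binds a short palindromic DNA site. The immediate early genes are those that a cell transcribes within minutes of a growth factor, serum or a stress, without first making new protein, because their promoters are held ready by serum response factor, ternary complex factors and CREB. Their mRNAs are mostly short-lived, so the level in a growing culture is set by current signaling. *FOS*, *EGR1* and *IER2* are classical serum-induced members, *ATF3* is best known as a gene of the integrated stress response and of DNA damage, and *FOSL1*, *JUN* and *JUND* can be held at a steady level for long periods in transformed cells.

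All 10 genes passed the filter on low values in all 4 lines, which kept genes with at least 1 TPM (a level corrected for transcript length and scaled to the library total) in at least 4 libraries of the line. In A549, *EGR1* was under 1 TPM in all 3 Control KD libraries and *FOSB* likewise, so both passed only through perturbed groups. Columns of the tables summed to 928908 to 964610 TPM, and since TPM keeps no depth, errors are the spread of 3 libraries. The share of mitochondrially encoded transcripts was 15.4 to 23.8% in the A549 libraries, 17.8 to 33.4% for NCI-H23, 6.02 to 8.31% for LN229 and 12.1 to 20.6% for LN319. The targeted genes checked the labels of the knockdowns, since *TRA2A* fell to 9.56% of Control KD in the A549 *TRA2A* KD and *TRA2B* to 9.68% in the *TRA2B* KD. In the dual knockdown of A549, *TRA2A* went from 75.1 to 10.4 TPM and *TRA2B* from 137 to 22.4 TPM. In that of NCI-H23 they went from 105 to 21.5 and from 92.2 to 23.3 TPM, a larger remaining share of each. The part of this difference between the lines in the results was not tested. The knockouts left more transcript, from 33.2% (*TRA2A* in LN319) to 66.0% (*TRA2B* in LN229) of Luc Control KO, and in LN229 with TRA2B-OE the *TRA2A* difference did not pass the test (80.2 to 69.9 TPM, adjusted p = 0.068). A549 had 5 of 5 epithelial markers at 1 TPM or more in Control KD and NCI-H23 had 4 of 5, but *NKX2-1* and *SFTPB*, which mark lung epithelium, were under 1 TPM in both. *NAPSA*, the other lung marker, was at 1 TPM or more on average in A549 Control KD and lower in NCI-H23 Control KD. Glial and neural markers were at 1 TPM or more for 5 of 5 in LN229 and 3 of 5 in LN319, where *OLIG2* and *S100B* were lower. Epithelial markers reached 1 TPM for 2 of 5 in LN229 Luc Control KO (summed 120 to 169 TPM). In LN319 Luc Control KO 4 of 5 did (344 to 357 TPM), and so did *NKX2-1*. *PTPRC*, *CD3E* and 3 of 3 endothelial markers were under 1 TPM in every control group, but *CD14*, the other immune marker, was at 1 TPM or more in each. The summed epithelial markers moved with the dual knockdown, from 5400 to 5820 TPM in Control KD to 4120 to 4330 TPM in A549, and from 1910 to 1970 to 1370 to 1610 TPM in NCI-H23. The summed mesenchymal markers, 3 of 3 at 1 TPM or more except that *FN1* was lower in the NCI-H23 *TRA2A* KD and dual knockdown, moved with it too, from 1300 to 1600 TPM to 1050 to 1150 TPM in A549 and from 1590 to 1620 TPM to 1130 to 1280 TPM in NCI-H23. The part of either list in the results was not tested. In bulk RNA, a smaller share of cells expressing a gene and less of its RNA per cell cannot be told apart.

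Where this matters below, values on the TPM as deposited are also given, because scaling moved the median of all genes by more than 0.1 on the log2 scale in some comparisons (by 0.3 in the A549 departure from additivity and by 0.15 in the NCI-H23 dual knockdown). A few libraries stood apart from their groups, and results that rest on them are given with and without them. A549 Control KD replicate 3 had the lowest median correlation with the other libraries of its line (0.837, against 0.872 or more). LN229 Luc Control KO replicate 1 was closest to a library of Luc *TRA2B* KO and had 184 TPM of *FOSL1*, near the 170 to 174 TPM of that group and far from the 429 and 426 TPM of the other control libraries. LN229 TRA2B-OE Control KO replicate 1 (251 TPM of *FOSL1* against 452 and 442) and LN319 TRA2B-OE Control KO replicate 3 (68.3 TPM of *EGR1* against 31.7 and 32.7) also departed from their groups on the genes described here.

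The promoters of 8 of the 10 genes were found in the RefSeq table (GRCh38.p14), and the 250 bases before the start of 4 of them are shown because these genes differ in their response to the dual knockdown described below. In the Gencode annotation of GRCh38, *FOSB* (chr19:45467995-45475179), *JUNB* (chr19:12791486-12793315), *JUND* (chr19:18279694-18281622) and *IER2* (chr19:13150411-13154911) lie on chromosome 19, *JUN* (chr1:58776845-58784048) and *ATF3* (chr1:212565334-212620777) on chromosome 1, and *FOS* (chr14:75278826-75282230), *FOSL1* (chr11:65892049-65900573), *EGR1* (chr5:138465479-138469303) and *IER3* (chr6:30743199-30744548) on others. The 3 *JUN* genes have a single exon, and no intron, while the other members have 2 to 4 exons. *EGR1* (chr5:138465229-138465478, plus strand), *FOS* (chr14:75278578-75278827, plus strand) and *FOSB* (chr19:45467746-45467995, plus strand) had large rises in A549, and *JUNB* (chr19:12791236-12791485, plus strand) did not pass the test there. Capitals mark the CArG box (the element bound by serum response factor), the TATA box (TATAAA) and TGACG, which is the start of the cyclic AMP response element, each searched on both strands.
EGR1: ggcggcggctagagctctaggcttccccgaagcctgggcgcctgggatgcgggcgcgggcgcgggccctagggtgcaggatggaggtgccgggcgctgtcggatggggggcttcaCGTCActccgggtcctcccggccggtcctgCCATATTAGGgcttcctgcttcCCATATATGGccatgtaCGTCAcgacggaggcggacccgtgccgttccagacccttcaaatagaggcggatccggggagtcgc
FOS: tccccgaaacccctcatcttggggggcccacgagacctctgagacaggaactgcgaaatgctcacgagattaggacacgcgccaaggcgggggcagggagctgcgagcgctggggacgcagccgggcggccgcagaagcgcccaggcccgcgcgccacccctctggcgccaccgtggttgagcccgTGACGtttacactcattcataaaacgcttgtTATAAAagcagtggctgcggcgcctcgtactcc
FOSB: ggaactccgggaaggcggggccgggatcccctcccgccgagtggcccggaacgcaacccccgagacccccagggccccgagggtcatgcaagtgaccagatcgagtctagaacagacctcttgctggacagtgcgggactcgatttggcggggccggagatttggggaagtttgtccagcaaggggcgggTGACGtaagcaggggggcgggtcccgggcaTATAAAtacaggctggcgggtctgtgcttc
JUNB: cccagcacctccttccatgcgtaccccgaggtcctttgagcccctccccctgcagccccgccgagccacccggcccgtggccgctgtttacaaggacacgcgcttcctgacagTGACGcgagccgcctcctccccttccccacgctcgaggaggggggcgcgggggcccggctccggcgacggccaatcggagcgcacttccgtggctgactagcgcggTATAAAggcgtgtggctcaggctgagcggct
In the *EGR1* promoter, CArG boxes lay 105 to 96 and 83 to 74 bases before the start, and 1.16% of 35116 promoters of this length held one. It was the only one of the 8 promoters with a CArG box in this window. TATAAA was found at 33 to 28 bases before the start of *FOS*, 30 to 25 of *FOSB* and 31 to 26 of *JUNB*, and in 10.7% of all promoters. TGACG was found in 7 of the 8 promoters and in 21.2% of all, the whole element TGACGTCA (which overlaps it) in that of *JUND* and in 1.65% of all, and the AP-1 site TGANTCA in none of the 8 and in 6.57% of all. A match describes the letters of this window and does not show that a factor was bound. The lack of a match says nothing of sequence outside the window, which was not searched. Whether these elements bear on the response to the knockdowns was not tested.

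In the control cells the 10 genes spanned a wide range of levels. The per-length order in A549 was *IER3* (80.9 TPM), *FOSL1* (70.9), *JUNB* (68.8), *JUND* (61.2), *IER2* (40.0), *JUN* (26.9), *ATF3* (14), *FOS* (1.19), *FOSB* (0.764) and *EGR1* (0.59). Neighbors from *IER3* to *JUN* overlapped in their 3 libraries, as did *FOS*, *FOSB* and *EGR1*, while *ATF3* stood apart from both sides. *EGR1* ranked near the top in the other lines, at 129 ± 10.4 TPM (SD, n = 3) for NCI-H23, 122 ± 55.6 for LN229 and 67.7 ± 2.12 for LN319. *FOS* was at 16.1 to 18.8 TPM on average in the other lines, and *FOSB* was the lowest of the 10 in all 3 of them (1.81 to 2.46 TPM). *FOS* and *EGR1* were thus listed far lower in A549 than in the other lines, which were quantified in separate tables and were not tested against each other. *FOSL1* ranked first in LN229 (346 ± 141 TPM) and far lower in LN319 (27.7 ± 2.48), and *IER3*, an early gene product that protects against apoptosis, was first in A549, NCI-H23 and LN319.

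The dual knockdown raised 8 of the 10 genes in A549 (14.6% of all 16405 genes tested were called higher and 30.5% in either direction) and lowered none. In NCI-H23 it raised 6 and lowered 1 (20.0% of 16293 genes were higher and 43.2% were called in either direction). A call is an adjusted p under 0.05 in limma. The A549 count and median include *FOSB*, which would not have entered the test there without the dual knockdown libraries. The median log2 difference of the 10 was 1.91 in A549, against 0.04 over all genes, and 0.35 in NCI-H23, against 0.02. The single knockdowns moved few of them. In A549, *TRA2A* KD called 1 of 10 (0.213% of all genes) and *TRA2B* KD called 0 of 10 (0.335%). In each, 3 of 10 had an unadjusted p under 0.05 in limma, beside 1852 and 2225 of all 16405 genes. In NCI-H23 both single knockdowns called 0 of 10 in limma (0.976% of all genes in *TRA2A* KD and 0.196% in *TRA2B* KD). There 5 and 4 of 10 had an unadjusted p under 0.05, beside 2218 and 1729 of all 16293 genes.

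**Figure D1:**
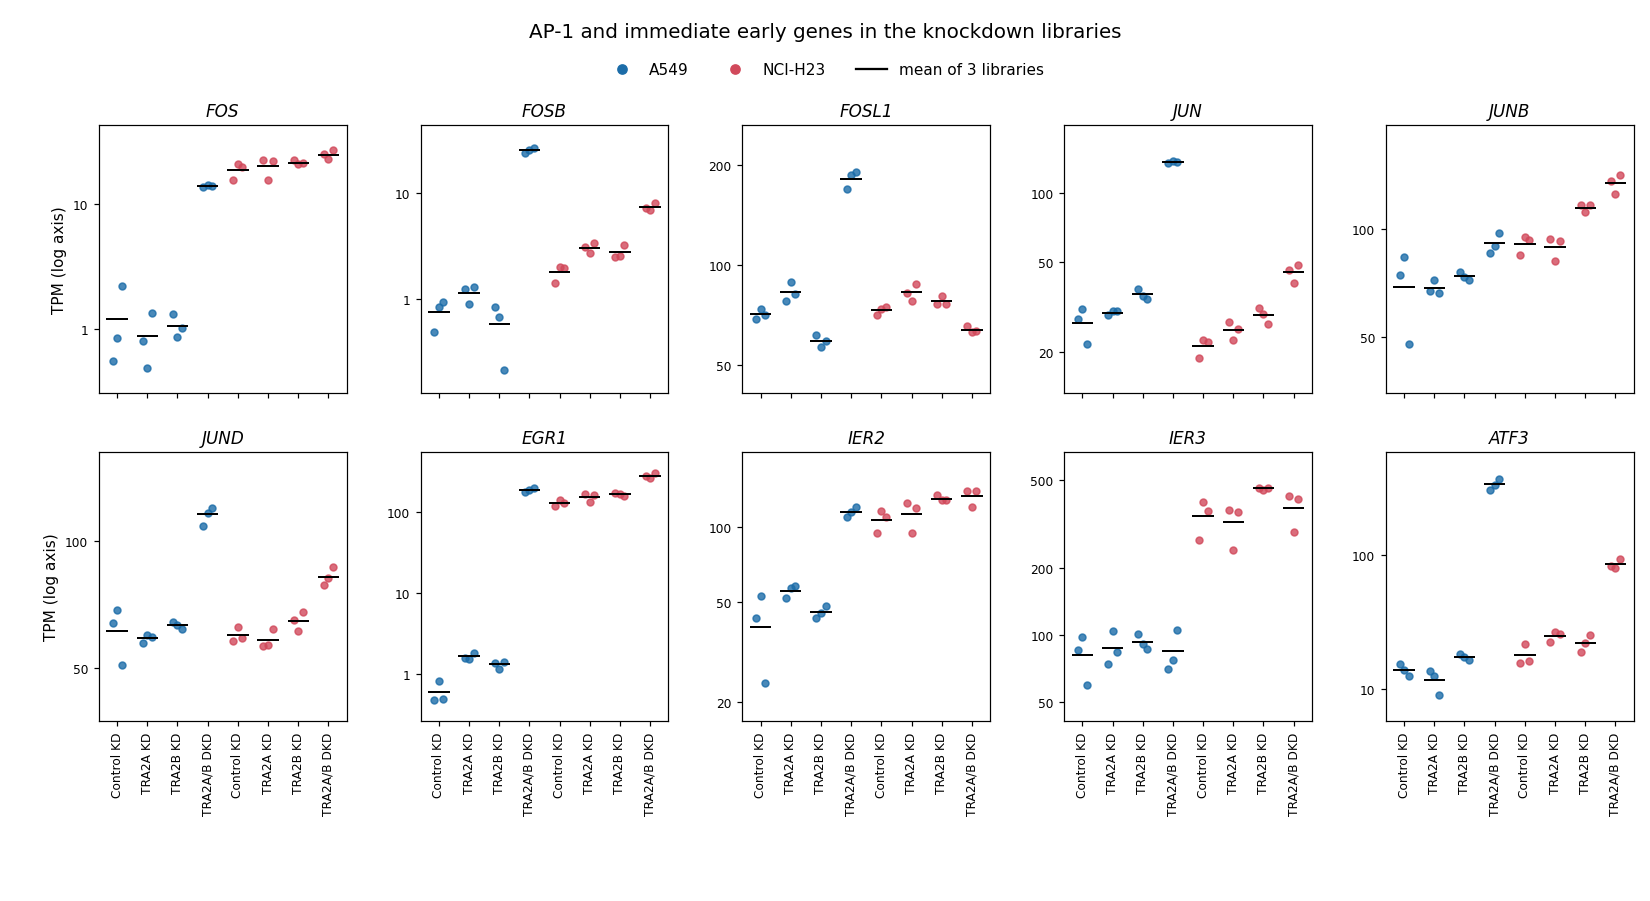
Level of each gene in TPM (vertical, log axis) in every library of A549 (blue) and NCI-H23 (red), by group, with a black bar for the mean of 3 libraries. The 3 A549 *TRA2A/B* DKD libraries hold 176 to 193 TPM of *EGR1*, where the Control KD libraries hold 0.474 to 0.804.

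Among the FOS proteins, which need a JUN partner to bind DNA, *FOSB* had the largest rise in A549. Its level was 0.49, 0.854 and 0.947 TPM in Control KD and 23.9, 25.0 and 26.1 TPM in *TRA2A/B* DKD, a log2 difference of 4.83 (SE 0.411, adjusted p = 1.35e-05). *FOSB* would not have passed the filter in A549 without the dual knockdown libraries, so this test is not independent of the filter and serves as a description. *FOS* went from 0.549, 0.842 and 2.18 TPM to 13.7, 14.2 and 14 TPM (3.59, SE 0.444, adjusted p = 1.61e-04). The libraries of both genes were all higher in the dual knockdown, with no overlap. *FOS* ended at 14 ± 0.241 TPM, so its 3 dual knockdown libraries were closer together than its controls. In NCI-H23 itself *FOSB* rose from 1.43, 2.01 and 1.98 to 7.20, 6.84 and 8.02 TPM (1.83, SE 0.166, adjusted p = 9.43e-06), again without overlap. *FOS* there had 15.5, 21.0 and 19.9 TPM in Control KD and 25.0, 22.9 and 26.9 TPM in the dual knockdown and missed the threshold (0.26, adjusted p = 0.113), although it passed on the TPM as deposited (adjusted p = 0.0445) and with a minimum of 5 TPM (adjusted p = 0.041).

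*FOSL1*, which encodes the FOS family protein FRA1 and is often high in RAS-driven cancer cells, differed between the lines. In A549 it rose from 68.5, 73.7 and 70.5 TPM to 169, 187 and 191 TPM (1.29, SE 0.0935, adjusted p = 4.88e-06). In NCI-H23 it fell from 70.6, 73.8 and 74.6 TPM to 65.4, 62.6 and 63.4 TPM (-0.35, SE 0.0595, adjusted p = 7.60e-04). The groups did not overlap in either line, so all A549 dual knockdown libraries were above and all NCI-H23 ones below their controls from near-equal starting levels. The difference between the lines was not tested, because the tables were made separately.

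The JUN proteins can pair with each other as well as with FOS proteins. *JUN* rose in both lines, from 28.0, 31.1 and 21.7 to 136, 139 and 137 TPM in A549 (2.29, SE 0.163, adjusted p = 4.45e-06) and from 18.9, 22.6 and 22.1 to 45.8, 40.4 and 48.6 TPM in NCI-H23 (0.93, SE 0.0795, adjusted p = 6.34e-06). It was the JUN gene with the largest difference in each line. *JUND*, which often opposes proliferation, also rose in both, from 61.2 ± 9.27 to 116 ± 5.51 TPM in A549 (0.86, adjusted p = 0.0016) and from 59.8 ± 2.32 to 82.3 ± 4.08 TPM in NCI-H23 (0.30, adjusted p = 0.00213). *JUNB* rose in NCI-H23, from 84.6, 94.8 and 93 to 136, 125 and 141 TPM (0.41, SE 0.0507, adjusted p = 9.18e-05). In A549 *JUNB* had 74.6, 83.7 and 48.0 TPM in Control KD and 85.9, 89.8 and 97.6 TPM in the dual knockdown and did not pass (0.37, SE 0.214, adjusted p = 0.213). All dual knockdown libraries were above the controls on the TPM as deposited, but they overlapped once scaled, and the lowest control value was from the library that stood apart.

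*EGR1*, a zinc finger transcription factor, had the second largest absolute difference of all genes tested in A549. Control KD held 0.474, 0.804 and 0.491 TPM and the dual knockdown 176, 183 and 193 TPM, which is 312 times the control mean and a log2 difference of 8.01 (SE 0.224, adjusted p = 2.09e-08). In NCI-H23, where *EGR1* started at 118, 139 and 129 TPM, it rose to 274, 258 and 299 TPM (0.95, SE 0.0677, adjusted p = 1.77e-06). Mean levels after the dual knockdown, in separate tables, were 184 ± 8.48 and 277 ± 20.8 TPM. *EGR1* was also the 1 gene of the 10 called in an A549 single knockdown, with 1.56, 1.54 and 1.82 TPM in *TRA2A* KD (1.5, SE 0.224, adjusted p = 0.0219). That call was lost on leaving out Control KD replicate 1 (adjusted p = 0.0714) or any 1 *TRA2A* KD library (adjusted p = 0.0612 to 0.0896). In *TRA2B* KD it had 1.37, 1.16 and 1.40 TPM (1.14, adjusted p = 0.0765), which passed without Control KD replicate 2 (adjusted p = 0.0123).

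*ATF3*, a stress-induced basic leucine zipper protein that pairs with JUN proteins and mostly represses, rose in both lines. In A549 it went from 15.5, 13.9 and 12.6 TPM to 308, 336 and 373 TPM, 24.2 times the control mean (4.52, SE 0.172, adjusted p = 1.49e-07). In NCI-H23 it went from 15.8, 21.8 and 16.1 TPM to 83.0, 80.8 and 94.3 TPM, 4.81 times the control mean (2.12, SE 0.13, adjusted p = 6.27e-07). No dual knockdown library overlapped a control library, and *ATF3* had the largest difference of the 10 genes in NCI-H23. The lowest of its dual knockdown libraries in A549 held more *ATF3* than any of the 10 genes did in the A549 controls.

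*IER2*, a serum-induced nuclear protein gene, rose in A549 from 43.4, 52.8 and 23.9 TPM to 110, 115 and 120 TPM (1.53, SE 0.273, adjusted p = 0.00181). In NCI-H23 it had 94.4, 116 and 110 TPM in Control KD and 139, 120 and 140 TPM in the dual knockdown, and the difference of 0.17 did not pass (adjusted p = 0.142) unless the TPM were taken as deposited (adjusted p = 0.0381), quantile-normalized (adjusted p = 0.00367) or filtered at 5 TPM (adjusted p = 0.039). *IER3* overlapped its controls in both lines. It had 85.4, 98.1 and 59.1 TPM against 70.1, 76.9 and 105 TPM in A549 (0.00, SE 0.232, adjusted p = 0.992) and 266, 397 and 361 TPM against 422, 291 and 408 TPM in NCI-H23 (-0.03, SE 0.163, adjusted p = 0.919).

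The single knockdowns gave smaller differences that mostly did not pass. In NCI-H23 *TRA2A* KD, *FOSB* had 3.08, 2.69 and 3.35 TPM (0.75, adjusted p = 0.0682), *ATF3* had 22.6, 26.9 and 25.7 TPM (0.51, adjusted p = 0.104) and *EGR1* had 164, 132 and 159 TPM (0.25, adjusted p = 0.127). The first 2 did not overlap their controls, and *EGR1* passed without *TRA2A* KD replicate 2 (0.33, adjusted p = 0.0171), the library with the highest mitochondrial share. In NCI-H23 *TRA2B* KD the largest differences were those of *FOSB* (0.49, adjusted p = 0.353), *JUN* (0.34, adjusted p = 0.184) and *IER3* (0.32, adjusted p = 0.521). In A549 *TRA2B* KD *JUN* had 38.1, 35.2 and 34.4 TPM, all above its controls (0.52, adjusted p = 0.274).

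Whether the effect of losing both paralogs exceeded the sum of the single effects was tested in the same fit, as the dual knockdown difference minus both single differences on the log2 scale. In A549, 6 of the 10 genes departed from the sum, all of them upward (14.7% of all genes were called). *EGR1* exceeded the sum by 5.38 (SE 0.316, adjusted p = 1.96e-05), *FOSB* by 4.5, *ATF3* by 4.23, *FOS* by 3.63, *JUN* by 1.46 and *FOSL1* by 1.10. Of these, *FOSB* would not have passed the filter without the dual knockdown libraries. For *ATF3* the single knockdowns held 13.6, 12.6 and 9.12 TPM (*TRA2A* KD) and 18.4, 17.4 and 16.4 TPM (*TRA2B* KD), near the control range of 12.6 to 15.5 TPM. Without Control KD replicate 3, 3 more genes passed in A549 (the share of all genes in that refit was not recorded). They were *JUND* (0.83, adjusted p = 1.21e-04), *IER2* (0.91, adjusted p = 6.44e-04) and *JUNB*, whose value changed from -0.04 to 0.30 (adjusted p = 0.0372). With all libraries *JUND* (0.61, adjusted p = 0.0802) also passed on the TPM as deposited (0.91, adjusted p = 0.00318), after quantile normalization (0.79, adjusted p = 0.0192) and at a minimum of 5 TPM (0.67, adjusted p = 0.0402). In NCI-H23, 4 of the 10 departed (21.0% of all genes), *ATF3* by 1.41 (SE 0.184, adjusted p = 4.70e-04), *EGR1* by 0.47 and *JUND* by 0.32 upward, and *FOSL1* by -0.52 downward (adjusted p = 0.00163). The *JUND* call was lost without *TRA2B* KD replicate 2 (adjusted p = 0.0506). *JUN* (0.33, adjusted p = 0.0621) and *JUNB* (0.2, adjusted p = 0.0698) lay near the threshold in NCI-H23 and passed after quantile normalization (adjusted p = 0.0253 and 0.00199). The 3 comparisons of a line share their control libraries.

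**Figure D2:**
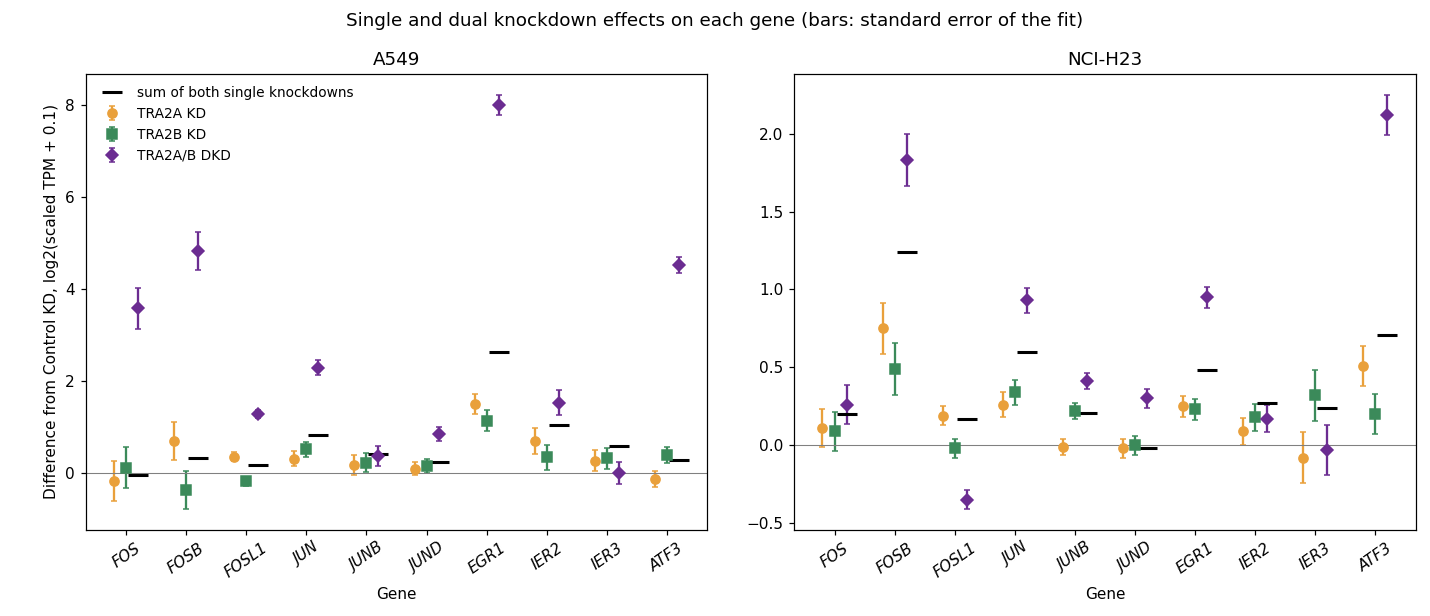
Difference from Control KD on the log2(scaled TPM + 0.1) scale (vertical) for each gene after the *TRA2A*, the *TRA2B* and the dual knockdown, for A549 (left) and NCI-H23 (right), with standard errors of the fit and a black mark at the sum of both single knockdowns. In A549 the dual knockdown of *EGR1* lies at 8.01, and the sum is exceeded by 5.38. The vertical axes of the panels differ.

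In the glioma lines the single-gene knockouts moved fewer of the genes than the dual knockdowns did in the lung lines. They called no fewer than the single knockdowns. Cell line, method (CRISPRi or active Cas9) and collection time also differ between these sets, which were not tested against each other. *ATF3* rose after *TRA2A* KO in both lines, *FOSL1*, *IER3* and *JUN* rose with it in LN319, and *FOS* and *FOSB* rose after *TRA2B* KO in LN229. Luc *TRA2A* KO called 1 of 10 in LN229 (3.79% of all genes) and 4 of 10 in LN319 (14.3%), all higher. Luc *TRA2B* KO called 3 of 10 in LN229 (0.557%) and 4 of 10 in LN319 (42.7%, so a share of 4 in 10 is near that of all genes). In LN319 the mitochondrial share moved with Luc *TRA2B* KO, at 18.3 to 20.6% against 12.1 to 12.8% in Luc Control KO, and its part in the results was not tested. The median log2 difference of the 10 lay between -0.20 and 0.04 in these 4 comparisons, against 0 to 0.02 over all genes.

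**Figure D3:**
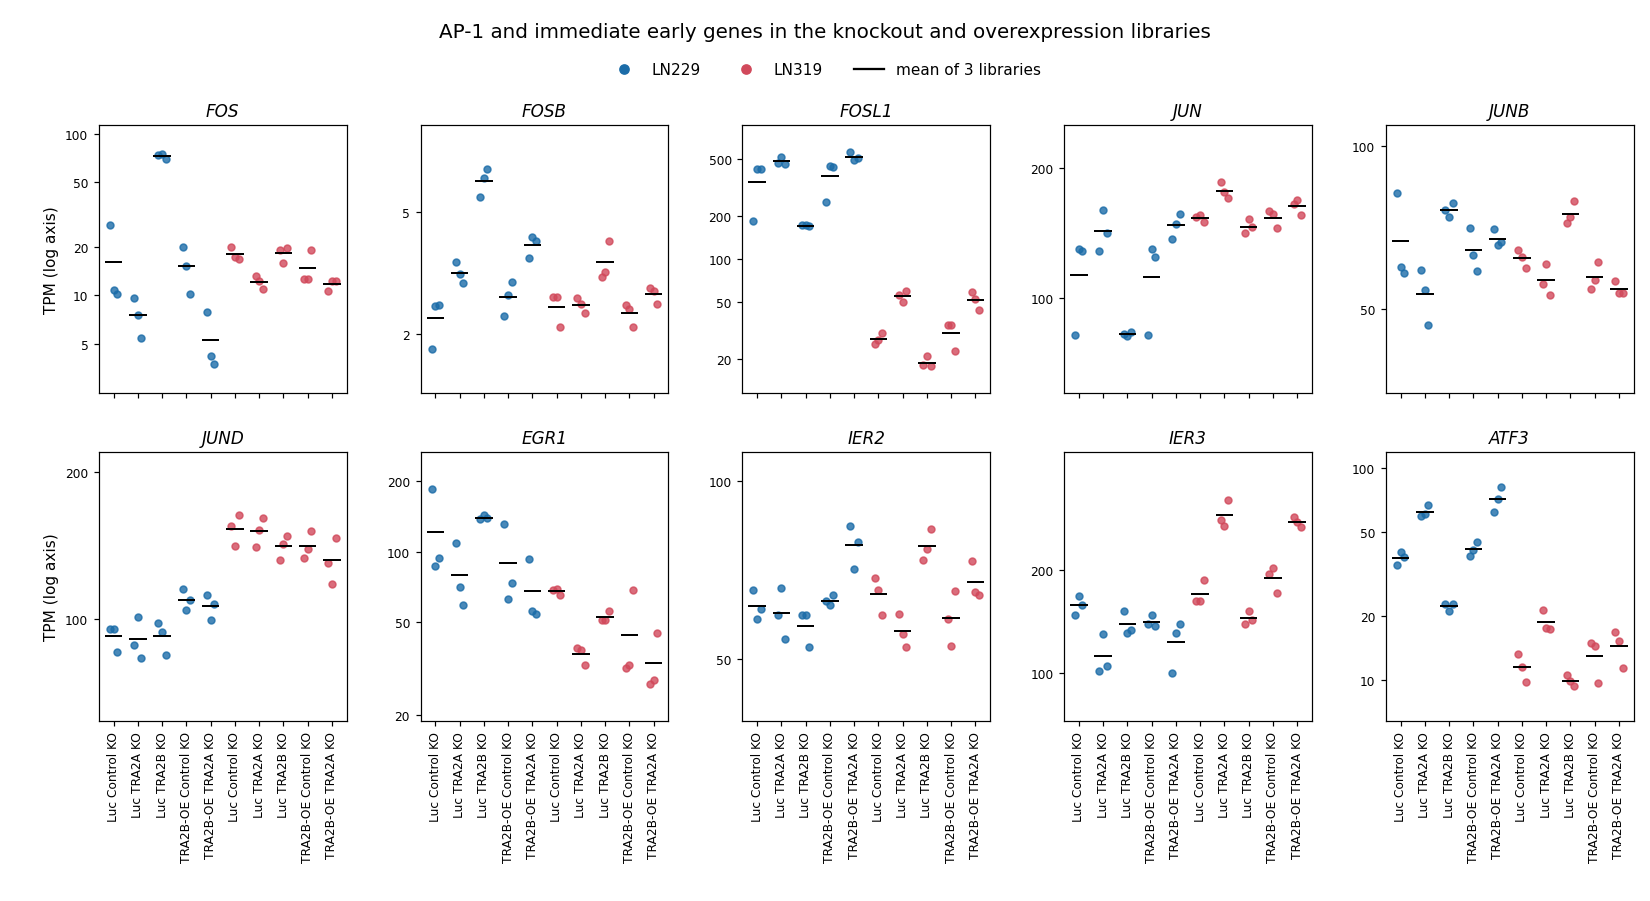
Level of each gene in TPM (vertical, log axis) in every library of LN229 (blue) and LN319 (red), by group, with a black bar for the mean of 3 libraries. *FOS* is at 69.3 to 74.5 TPM in LN229 Luc *TRA2B* KO and at or below 27.3 TPM in all other LN229 libraries.

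*FOS* had its largest knockout difference in LN229. It had 27.3, 10.8 and 10.2 TPM in Luc Control KO and 74.0, 74.5 and 69.3 TPM in Luc *TRA2B* KO (2.27, SE 0.368, adjusted p = 0.0242). All knockout libraries were above all controls, of which replicate 1 was the highest, and without both LN229 control libraries numbered 1 the difference was 2.73 (adjusted p = 1.12e-04). The call was lost on leaving out Luc Control KO replicate 2 (adjusted p = 0.14) or 3 (adjusted p = 0.12), or any 1 Luc *TRA2B* KO library (adjusted p = 0.0574 to 0.0995). *FOSB* rose in the same comparison from 1.79, 2.47 and 2.50 to 5.58, 6.45 and 6.86 TPM (1.40, SE 0.162, adjusted p = 0.00648). Neither call held in a fit restricted to these groups (adjusted p = 0.202 for each). In LN319 the *FOS* libraries of Luc *TRA2B* KO overlapped those of the control (18.3 ± 2.12 against 17.9 ± 1.72 TPM), and *FOSB* passed narrowly, with 2.64, 2.64 and 2.12 TPM in the control and 3.08, 3.20 and 4.02 TPM in the knockout (0.35, adjusted p = 0.0438). That *FOSB* call was lost on leaving out any 1 of the 6 libraries (adjusted p = 0.0521 to 0.209) and in the restricted fit (adjusted p = 0.126).

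In Luc *TRA2A* KO, *FOS* was lower in all 3 knockout libraries than in all 3 controls in both lines, without passing the test. In LN229 it had 9.60, 7.57 and 5.48 TPM (-0.94, adjusted p = 0.163). Without both LN229 control libraries numbered 1 that difference was -0.49 (adjusted p = 0.401). In LN319 *FOS* had 13.2, 12.2 and 10.9 TPM against 19.9, 17.2 and 16.7 TPM (-0.52, adjusted p = 0.0508). *EGR1* in LN319 also lay just outside the threshold, with 38.6, 38.0 and 32.6 TPM against 68.4, 69.4 and 65.3 TPM (-0.86, adjusted p = 0.0503). Neither group overlapped its control in LN319, and a fit restricted to these groups gave an adjusted p of 0.0203 for *FOS* and 0.00181 for *EGR1*. The *EGR1* fall was not particular to *TRA2A* KO, since LN319 Luc *TRA2B* KO held 50.8, 51.0 and 55.9 TPM, also all below the controls. That difference did not pass with all libraries but did in its restricted fit (-0.47, adjusted p = 0.000674). In LN229 the *EGR1* libraries of each knockout overlapped those of the control, while those of Luc *TRA2A* KO were all below those of Luc *TRA2B* KO, at 79.6 ± 25.7 TPM in Luc *TRA2A* KO, 140 ± 3.14 in Luc *TRA2B* KO and 122 ± 55.6 in Luc Control KO.

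*FOSL1* changed in opposite directions in the knockouts of LN319. It rose in Luc *TRA2A* KO from 25.5, 27.0 and 30.4 to 56.4, 50.5 and 59.8 TPM (1.05, SE 0.142, adjusted p = 5.95e-04) and fell in Luc *TRA2B* KO to 18.0, 20.8 and 17.7 TPM (-0.66, SE 0.142, adjusted p = 0.00254). In LN229 it had 472, 520 and 462 TPM in Luc *TRA2A* KO and 173, 174 and 170 TPM in Luc *TRA2B* KO, and the controls with 184, 429 and 426 TPM lay between these groups without overlap. Neither LN229 difference passed with all libraries (0.61, adjusted p = 0.244, and -0.95, adjusted p = 0.103). The *TRA2A* difference of *FOSL1* was 0.19 (adjusted p = 0.142) without both LN229 control libraries numbered 1. Without both LN229 control libraries numbered 1, the *TRA2B* difference passed for *FOSL1* (-1.35, adjusted p = 1.08e-06), *JUN* (-0.69, adjusted p = 3.81e-04) and *JUNB* (0.32, adjusted p = 0.0143), so that 6 of the 10 were called instead of 3. Leaving out Luc Control KO replicate 1 alone also gave 6. The shares of all genes called in these refits were not recorded, and the 0.557% given above is from the fit with all libraries. The summed glial and neural markers, 5 of 5 above 1 TPM, were at 1300 to 1380 TPM in Luc *TRA2B* KO, 630 to 1200 in Luc Control KO and 432 to 641 in Luc *TRA2A* KO, and their part in these differences was not tested. In LN319, summed mesenchymal markers (3 of 3 above 1 TPM) were at 4890 to 4980 TPM in Luc Control KO, 5820 to 6000 in Luc *TRA2A* KO and 3600 to 3810 in Luc *TRA2B* KO. Glial and neural markers there (3 of 5) were at 386 to 431, 328 to 366 and 495 to 507 TPM, and the part of either list was not tested.

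Of the JUN genes, only *JUN* was called against a control in the gliomas with all libraries, and only in LN319. In LN229 *JUN* differed by 0.38 in Luc *TRA2A* KO (adjusted p = 0.273) and by -0.48 in Luc *TRA2B* KO (adjusted p = 0.171). Without both LN229 control libraries numbered 1 these were 0.16 (adjusted p = 0.395) and -0.69 (adjusted p = 3.81e-04). *JUN* in LN319 rose in Luc *TRA2A* KO from 154, 155 and 150 to 185, 176 and 170 TPM (0.25, SE 0.0372, adjusted p = 9.03e-04). It fell in Luc *TRA2B* KO by 0.17 on the log2 scale (146 ± 5.51 against 153 ± 2.64 TPM, adjusted p = 0.00237), a value that was 0.03 after quantile normalization and did not pass on the TPM as deposited (adjusted p = 0.327). *JUNB* and *JUND* passed in none of the 4 Luc comparisons. *JUNB* in LN319 Luc *TRA2B* KO had 71.9, 73.9 and 79.0 TPM, all above the controls at 64.2, 62.2 and 59.6 TPM (0.16, adjusted p = 0.0745), and it passed on the TPM as deposited (0.27, adjusted p = 0.00341) and after quantile normalization (0.3, adjusted p = 0.00258). *JUND* differed by at most 0.23 in size there, and its lowest adjusted p was 0.12 (0.0493 for LN319 Luc *TRA2B* KO in a fit restricted to these groups).

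*ATF3* rose after *TRA2A* KO in both gliomas, from 34.7, 40.1 and 38.1 to 59.6, 61.0 and 66.7 TPM in LN229 (0.75, SE 0.114, adjusted p = 0.00926) and from 13.2, 11.5 and 9.73 to 21.3, 17.5 and 17.3 TPM in LN319 (0.74, SE 0.158, adjusted p = 0.00818). The groups did not overlap in either line. The LN229 call was lost without Luc *TRA2A* KO replicate 3 (adjusted p = 0.0548) and in a fit restricted to these groups (adjusted p = 0.157). In LN229 *ATF3* fell in Luc *TRA2B* KO to 22.9, 21.1 and 22.8 TPM (-0.80, SE 0.114, adjusted p = 0.0147), and the call was lost without Luc Control KO replicate 2 (adjusted p = 0.0913) or 3 (adjusted p = 0.0606) or Luc *TRA2B* KO replicate 2 (adjusted p = 0.0957) or 3 (adjusted p = 0.0764), and in the restricted fit (adjusted p = 0.202). In LN319 its difference in Luc *TRA2B* KO was -0.32 (adjusted p = 0.124).

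*IER3* was called in LN319 and in no other line. It rose in Luc *TRA2A* KO from 162, 162 and 186 to 280, 268 and 319 TPM (0.81, SE 0.0892, adjusted p = 2.06e-04) and fell in Luc *TRA2B* KO to 139, 152 and 143 TPM (-0.34, SE 0.0892, adjusted p = 0.00823). In LN229 the Luc *TRA2A* KO libraries held 101, 130 and 105 TPM, all below the control values of 148, 168 and 158 TPM, but the difference did not pass (-0.48, adjusted p = 0.0644). Quantile normalization took the LN319 *TRA2B* call away (adjusted p = 0.208), and on the TPM as deposited the LN229 difference passed (adjusted p = 0.0432). *IER2* passed in none of the 4 Luc comparisons, at 55.8 to 77.8 TPM on average, although in LN319 Luc *TRA2B* KO its difference of 0.16 was 0.27 on the TPM as deposited (adjusted p = 0.0228).

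TRA2B-OE alone called 0 of the 10 genes in limma in LN229 (1.03% of all genes) and 0 of 10 in LN319 (4.30%). At an unadjusted p under 0.05 there were 0 and 5 of 10, beside 2638 of 18490 and 4826 of 19303 genes. *TRA2B* itself was at 832 ± 112 TPM in LN229 and 765 ± 81.5 TPM in LN319. Without LN319 TRA2B-OE Control KO replicate 3, 4 genes passed, all lower, and the share of all genes in that refit was not recorded. They were *EGR1* (-1.16, adjusted p = 0.00509), *FOS* (-0.58, adjusted p = 0.0178), *IER2* (-0.30, adjusted p = 0.0303) and *JUNB* (-0.25, adjusted p = 0.0343). In the *TRA2B*-overexpressing cells, *TRA2A* KO called 2 of 10 in LN229 (6.05%) and 2 of 10 in LN319 (2.81%).

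In LN229 with TRA2B-OE, *ATF3* rose from 38.3, 40.9 and 44.7 to 62.3, 71.4 and 81.9 TPM (0.76, SE 0.114, adjusted p = 0.00346). *FOS* fell from 19.9, 15.2 and 10.2 to 7.94, 4.21 and 3.74 TPM (-1.56, SE 0.368, adjusted p = 0.0296), and this call was lost without TRA2B-OE Control KO replicate 1 (adjusted p = 0.101) or 2 (adjusted p = 0.0768) or TRA2B-OE *TRA2A* KO replicate 2 (adjusted p = 0.0992) or 3 (adjusted p = 0.102), and in the restricted fit (adjusted p = 0.067). Neither pair of groups overlapped. In LN319 with TRA2B-OE, *FOSL1* rose from 34.8, 34.3 and 22.7 to 59.0, 52.7 and 43.9 TPM (0.83, SE 0.142, adjusted p = 0.0135) and *IER3* from 194, 202 and 171 to 285, 276 and 267 TPM (0.61, SE 0.0892, adjusted p = 0.00762), also without overlap. The *FOSL1* call was lost without TRA2B-OE *TRA2A* KO replicate 1 (adjusted p = 0.0619) or 2 (adjusted p = 0.05), and neither call held in the restricted fit (adjusted p = 0.145 for *FOSL1* and 0.0805 for *IER3*).

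Whether overexpression changed the response to *TRA2A* KO was tested as the difference of the differences. It called 0 of the 10 genes in limma in LN229 (0% of all 18490 genes) and 0 of 10 in LN319 (0.0207%). At an unadjusted p under 0.05 there were 1 and 2 of 10, beside 1068 of 18490 and 1530 of 19303 genes. The *ATF3* response to *TRA2A* KO in LN319, for example, was 0.74 with Luc and 0.22 with TRA2B-OE, and the difference of -0.52 (SE 0.223) had an adjusted p of 0.589. For *FOSL1* and *IER3* in LN319 the differences were -0.21 (SE 0.201) and -0.20 (SE 0.126).

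The knockouts were also set against each other within the Luc cells, a comparison chosen after the values were seen. The difference of means uses no control library, but its error comes from the fit over all libraries of the line. *TRA2A* KO minus *TRA2B* KO called 6 of 10 in LN229 (34.1% of all genes) and 7 of 10 in LN319 (47.2%). *FOSL1* was higher in *TRA2A* KO in both lines, by 1.56 in LN229 (SE 0.287, adjusted p = 0.00204) and 1.71 in LN319 (SE 0.142, adjusted p = 2.63e-06). *ATF3* (1.55 and 1.06) and *JUN* (0.86 and 0.43) were higher in both lines as well, and *FOS* (-3.21 and -0.44) and *JUNB* (-0.45 and -0.26) were lower in both. The *FOS* call in LN319 (adjusted p = 0.042) was lost on leaving out any of 5 of the 6 libraries (adjusted p = 0.0528 to 0.125). *FOSB* was lower in LN229 (-0.90), and in LN319 *IER3* was higher (1.15) and *IER2* lower (-0.33). *EGR1* in LN229 did not pass (-0.79, adjusted p = 0.0783), but did in a fit restricted to these groups (-0.80, adjusted p = 0.0139).

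**Figure D4:**
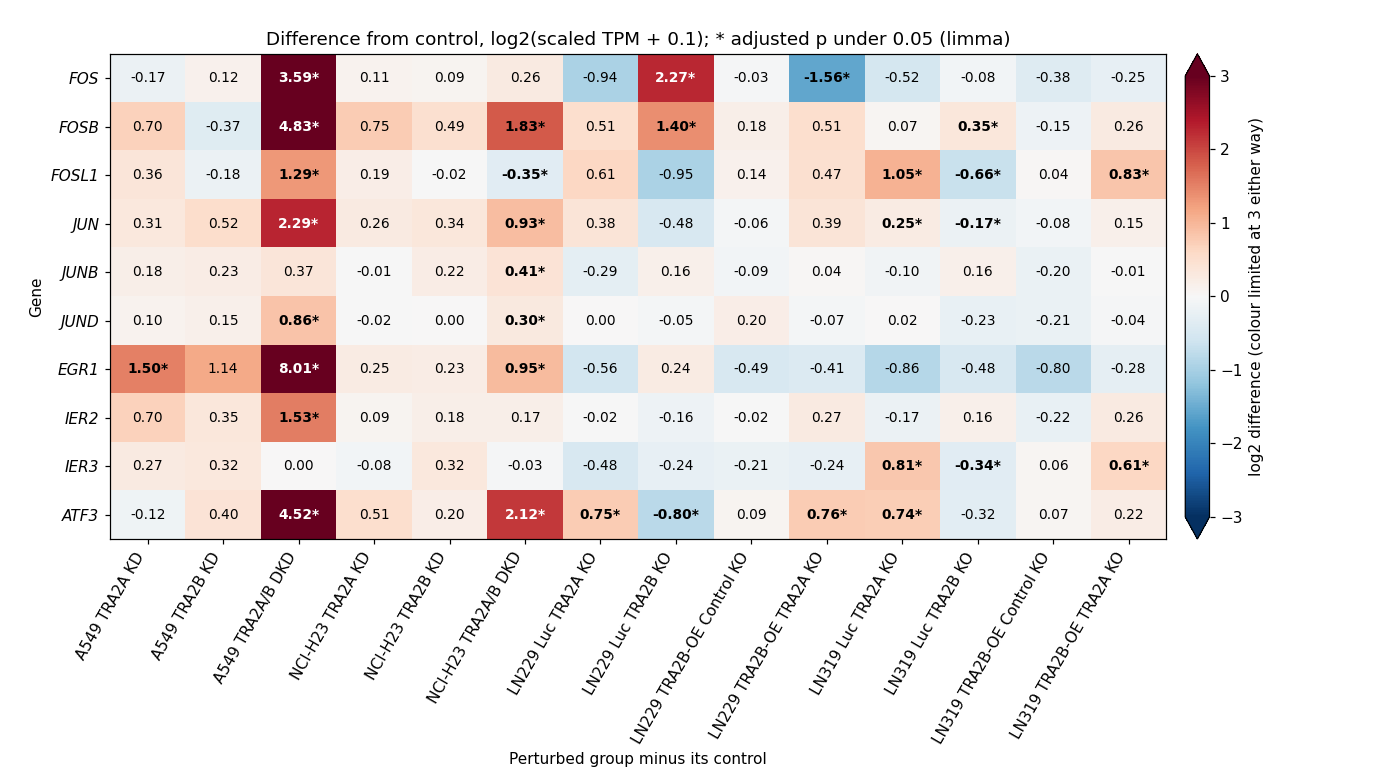
Difference of each gene from its control on the log2(scaled TPM + 0.1) scale (colour and printed value) in the 14 comparisons, with a star for an adjusted p under 0.05 in limma. Of 140 values 32 are called, and 15 of these lie in the dual knockdown columns. The share of all genes called in a comparison runs from 0.196% to 43.2%.

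Over the 14 comparisons with a control, 32 of 140 values were called, 26 higher and 6 lower. The share of all genes called ran from 0.196% in NCI-H23 *TRA2B* KD to 43.2% in NCI-H23 *TRA2A/B* DKD. These counts are to be read beside those shares. *ATF3* was called most often, in 6 comparisons (5 higher), followed by *FOSL1* in 5 (3 higher and 2 lower), *FOSB* in 4 (all higher) and *JUN* in 4 (3 higher). *JUNB* and *IER2* were each called once, in a dual knockdown.

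Other early response genes, from a list of 29, went mostly the same way in the A549 dual knockdown, where 19 of 25 tested rose, 1 fell and the median difference was 1.08 (30.5% of all genes were called). In NCI-H23, 13 of 28 rose and 6 fell, with a median of 0.24 (43.2% of all genes). *PPP1R15A* (GADD34), which restores translation after stress, rose from 28.3 ± 7.61 to 356 ± 14.7 TPM in A549 (3.61, adjusted p = 1.33e-06) and from 19.3 ± 0.842 to 63.4 ± 5.65 TPM in NCI-H23 (1.55, adjusted p = 6.17e-08). The antiproliferative genes *BTG2* (2.38 and 1.75) and *BTG1* (1.60 and 1.69) rose in both lines. *NR4A1*, an orphan nuclear receptor gene, rose in A549 (1.08, adjusted p = 0.00115) and fell in NCI-H23 (-1.22, adjusted p = 2.27e-06).

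Of 12 other AP-1 family genes, 4 of 8 tested rose in the A549 dual knockdown and none fell, and in NCI-H23 4 of 9 rose and 1 fell, beside 30.5% and 43.2% of all genes called in either direction. Of 19 upstream regulators (serum response factor, its cofactors and MAP kinases), 3 rose and 5 fell in A549 and 3 rose and 7 fell in NCI-H23, with medians of -0.01 and -0.04. Of 19 genes known as AP-1 targets, 7 of 15 tested rose and 1 fell in A549 (median 0.37), while 3 of 17 rose and 5 fell in NCI-H23 (median -0.12). The shares called in the last 2 lists are to be read against the same 30.5% and 43.2%. The medians of the upstream regulators are to be read beside 0.04 and 0.02 over all genes, and their called genes went in both directions. The part of these regulators in the early response was not tested.

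In the gliomas the AP-1 targets had 2 higher and 8 lower of 15 tested in LN319 Luc *TRA2B* KO (median -0.42, 42.7% of all genes called) and 3 higher and 3 lower in Luc *TRA2A* KO (median 0.22, 14.3%). The early response list had 7 higher and 5 lower of 28 in LN229 Luc *TRA2A* KO (median 0.10, 3.79% of all genes called) and 16 higher and 3 lower of 28 in LN319 (median 0.29, 14.3%). *CYR61* (1.19, adjusted p = 0.044) and *GADD45B* (1.04, adjusted p = 0.0335) rose in LN229, and *CTGF*, which like *CYR61* encodes a matricellular protein, rose in LN319 from 205 ± 59.1 to 528 ± 144 TPM (1.41, adjusted p = 0.00137) and with TRA2B-OE by 1.02 (adjusted p = 0.0304). Of the AP-1 targets, *IL6* rose after *TRA2A* KO in LN229 (1.72 with Luc, adjusted p = 0.0261, and 1.70 with TRA2B-OE, adjusted p = 0.0192). *CCND1*, the cyclin D1 gene, rose after *TRA2A* KO in LN319 from 9.91 ± 1.22 to 29.7 ± 2.32 TPM (1.62, adjusted p = 0.00243) and with TRA2B-OE by 1.25, where *CXCL8* also rose (1.60). *EGR3*, a relative of *EGR1*, fell in LN229 TRA2B-OE *TRA2A* KO (-1.07, adjusted p = 0.0105) and rose in LN319 Luc *TRA2B* KO (1.13, adjusted p = 0.00423), where *SPP1* (-1.38) and *PTGS2* (-1.01) fell, both from under 2 TPM.

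The genes whose pattern was most like that of a member were found by the mean of the 4 Pearson correlations within a line, over 12 libraries in A549 and NCI-H23 and 15 in LN229 and LN319, among 13381 genes tested in all lines. These libraries share groups, so the correlations follow the differences between groups and are given as a description. For *ATF3* they were *PPP1R15A* (0.95), *STC2* (0.94) and *CEBPG* (0.93). For *EGR1* they were *PHLDA3* (0.88), *CTBS* (0.87) and *C6orf226* (0.86). For *FOS* they were *DDIT4* (0.82), *NAB2* (0.80) and *TNFRSF10C* (0.79), and for *JUN* they were *C11orf68* (0.95), *HSPA9* (0.93) and *TRMT61A* (0.92).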

How the data were processed

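Libraries were poly(A)-selected and strand-specific. The submitters' processing notes name STAR 2.7.3, kallisto 0.48.0 and GRCh38. The authors deposited gene-level TPM by symbol in a table for each cell line, and all 54 columns were matched to a sample. How transcripts were summed to genes is not given in the sources used here.

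Lines were analyzed separately with limma 3.58.1 (R 4.3.3, statmod 1.5.0). A gene entered if it had 1 TPM or more in 4 or more libraries, which left 16405 genes for A549, 16293 for NCI-H23, 18490 for LN229 and 19303 for LN319. TPM were scaled by trimmed means of log ratios without weights (30% of ratios and 5% of abundances trimmed) and taken as log2(TPM + 0.1), which understates changes of low genes. A single linear model per line, moderated by empirical Bayes with a trend on the mean, gave every contrast. All p-values are two-sided, adjusted by Benjamini-Hochberg over all genes of a contrast. Levels are the deposited TPM with the SD of 3 libraries. No source used here says that replicates were separate cultures, so p-values measure the spread between these libraries, which may be technical. TPM does not give the depth.

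The members, gene lists and tests were chosen with earlier results of these data known. Named were *TRA2A*, *TRA2B*, all members, genes of the other lists past an absolute log2 difference of 1 in both dual knockdowns (at most 4 a list) or in a glioma comparison (at most 2 a list), and the 3 genes of most similar pattern for 4 members. One gene that this rule names is not reported here. On simulated data with 200 genes changed 4-fold, 89.5 to 98.5% were recovered, with 7 to 17 false calls per comparison. The changed genes were drawn from those above a minimum mean level, errors were normal and independent, and all other genes were unchanged. These rates may therefore not hold for low genes, for groups with an outlying library or for the dual knockdowns, where many genes were called. Alternatives were 2 other scalings, pseudocounts of 0.5 and 1, no filter or one at 5 TPM, a fold minimum, a replicate block, fits to the compared groups alone, each library left out and, chosen after seeing the data, removal of both LN229 control libraries numbered 1. Promoters came from RefSeq. Python 3.11.15, pandas 2.3.3, numpy 2.4.6 and matplotlib 3.10.9 were used.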

Additional observations from a re-analysis of the deposited data

Results flagged for a closer look

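These results are listed because a test of a difference passed, or because every library of 1 line moved one way and every library of the other line the opposite way. In A549 the dual knockdown exceeded the sum of the single knockdowns on the log2 scale for *EGR1* (5.38), *FOSB* (4.5), *ATF3* (4.23), *FOS* (3.63), *JUN* (1.46) and *FOSL1* (1.1). In NCI-H23 it did so for *ATF3* (1.41), *EGR1* (0.47) and *JUND* (0.32) and fell short for *FOSL1* (-0.52). *FOSB* in A549 would not have passed the filter without the dual knockdown libraries.

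The *FOSL1* response to *TRA2A/B* DKD was 1.29 in A549 and -0.35 in NCI-H23. The *IER3* response to Luc *TRA2A* KO was -0.48 in LN229 and 0.81 in LN319, and the *IER2* response to Luc *TRA2B* KO was -0.16 in LN229 and 0.16 in LN319, neither *IER2* value passing the test. On the scaled values all 3 libraries were on the same side of their controls in each of these 6 cases, and the difference between lines was not tested, since the tables were made separately.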

How the results depend on the processing

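Of the 55 called values over the 20 contrasts, 42 held under the alternatives in which their gene was tested, the fold minimum aside. A value changed direction in 2 cases, *JUNB* in the A549 departure from additivity (0.3 without Control KD replicate 3, against -0.04 with all libraries and -0.25 to 0.3 with each left out) and *JUN* in LN319 Luc *TRA2B* KO (0.03 after quantile normalization), and 46 uncalled values changed sign under some alternative. The count of members called in A549 *TRA2A* KD went from 1 to 0 under quantile normalization, a pseudocount of 1, a minimum of 5 TPM, the replicate block and only the groups compared. In A549 *TRA2A/B* DKD it went from 8 to 5 at 5 TPM, since *FOS*, *FOSB* and *EGR1* then left the test. In LN229 Luc *TRA2A* KO it was 2 on the TPM as deposited, after quantile normalization and at 5 TPM, and 3 with the replicate block, where *FOS* (adjusted p = 0.0193) and *IER3* (0.042) passed. With only the groups compared it was 0 in LN229 Luc *TRA2A* KO, 0 in LN229 Luc *TRA2B* KO, 1 in LN229 TRA2B-OE *TRA2A* KO and 0 in LN319 TRA2B-OE *TRA2A* KO. It was 1 without a filter in LN229 TRA2B-OE *TRA2A* KO, and 6 in LN229 Luc *TRA2B* KO without both control libraries numbered 1. With an absolute log2 difference above 1, it was 2 in NCI-H23 *TRA2A/B* DKD, 1 in the NCI-H23 departure from additivity, 0 in LN229 Luc *TRA2A* KO, 1 in LN229 TRA2B-OE *TRA2A* KO, 1 in LN319 Luc *TRA2A* KO, 0 in LN319 Luc *TRA2B* KO, 0 in LN319 TRA2B-OE *TRA2A* KO, and 3 in each glioma line for *TRA2A* KO minus *TRA2B* KO. The causes were not tested. Apart from the 2 other scalings and the fold minimum, the shares of all genes called under these alternatives were not recorded. With each library left out in turn, the count ranged from 0 to 1 in A549 *TRA2A* KD and *TRA2B* KD, NCI-H23 *TRA2A* KD and LN229 Luc *TRA2A* KO, from 1 to 6 in LN229 Luc *TRA2B* KO, from 1 to 2 in both TRA2B-OE *TRA2A* KO comparisons, from 0 to 4 in LN319 TRA2B-OE Control KO, and stayed at 8 and 7 in the dual knockdowns. Replicate numbers did not pair the libraries (correlations of deviations from -0.154 to 0.212), and the block moved no other count by over 1.5 times. On the TPM as deposited, the share of all called genes that were higher went from 40.8 to 72.7% in the A549 departure from additivity, 39.1 to 49.5% in that of NCI-H23, 46.2 to 63% in NCI-H23 *TRA2A/B* DKD, 81.2 to 93.8% in NCI-H23 *TRA2B* KD, 49.1 to 33.9% in LN319 Luc *TRA2A* KO, 43.3 to 56.4% in LN319 Luc *TRA2B* KO, 49.8 to 72.2% in LN319 TRA2B-OE Control KO, 54.7 to 28.4% in LN319 TRA2B-OE *TRA2A* KO, 56 to 39.4% in LN319 and 54.6 to 43.3% in LN229 for *TRA2A* KO minus *TRA2B* KO, 37.9 to 51.2% in LN229 Luc *TRA2B* KO, 70.5 to 89.9% in LN229 TRA2B-OE Control KO and 35.9 to 51.4% in LN229 TRA2B-OE *TRA2A* KO. TPM does not carry the read depth, so counting error is not given.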
